A study of Caenorhabditis elegans with 2 samples.

Results

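The transcripts described here are those of 9 autophagy genes of *Caenorhabditis elegans*: unc-51, bec-1, vps-34, atg-18, atg-7, lgg-1, lgg-2, sqst-1 and epg-5. They were chosen by name, and each was found through the sequence name behind its WormBase symbol, with isoform letters dropped and the uniquely mapped reads of its isoforms summed. Of the 9 genes, 8 had a listed coding sequence among the 8730 genes of the series, and epg-5 was not listed and is not analysed here. mRNA was sequenced from whole young adults of 2 genotypes, the wild type N2 Bristol and KU25, a strain with the pmk-1(km25) deletion on chromosome IV, in the gene of the p38 mitogen-activated protein kinase PMK-1. Both were grown at 20 °C on *Escherichia coli* OP50 and then kept at 35 °C for 5 h, so heat is shared by both groups and no unheated worms were analysed. Each genotype had 1 library, with 5.78 M counted reads for the wild type and 5.23 M for the mutant, so no test of genotype and no p-value is possible.

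Autophagy encloses cytoplasm in a double membrane, the autophagosome, and delivers it to lysosomes for breakdown. The kinase UNC-51 (the worm ULK1) starts the process, and a lipid kinase complex with VPS-34 and BEC-1 (the worm Beclin 1) makes the phosphatidylinositol 3-phosphate that ATG-18 binds. The enzyme ATG-7 then activates the ubiquitin-like proteins LGG-1 and LGG-2, the worm members of the GABARAP and LC3 families, which become attached to lipid in the growing membrane. SQST-1 (the worm p62) ties cargo to that membrane, and EPG-5 acts when autophagosomes mature and fuse with lysosomes. Heat shock is known to raise autophagy and the transcripts of several of its genes in worms, in part through the heat shock factor HSF-1, and sqst-1 is among the genes it induces.

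In the WBcel235 annotation, bec-1, lgg-2, sqst-1 and atg-7 lie on chromosome IV, which also carries the deleted gene, unc-51 and atg-18 on V, lgg-1 on II and vps-34 on I. The deposited coding lengths run from 372 bases for lgg-1, which encodes a small ubiquitin-like protein, to 2706 for vps-34.

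After heat, lgg-1 and sqst-1 were by far the most abundant of the 8 genes in both libraries. They held 82.3% of the reads of the 8 genes in the wild type against 82.9% in the mutant. Levels between genes are given as deposited RPKM, in which the authors divided each count by coding length and by library size, with an exact 95% Poisson interval of the reads. lgg-1 (C32D5.9) had 1244 RPKM (1197 to 1292) in the wild type against 1680 (1622 to 1738) in the mutant, which placed it at rank 129 of 8258 genes and rank 112 of 8515 genes. sqst-1 (T12G3.1) had 576 RPKM (562 to 589) and 580 (565 to 594), at ranks 244 and 266. The lgg-1 level was thus above that of sqst-1 in both libraries, with intervals that did not overlap.

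The other listed genes of the set lay well below these. bec-1 (T19E7.3) had 92.7 RPKM (85.5 to 100.4) in the wild type against 91.7 (84.1 to 99.8) in the mutant. lgg-2 (ZK593.6) had 87.1 RPKM (75.4 to 100.1) and 94.9 (82.0 to 109). atg-7 (M7.5) had 72.4 RPKM (67.5 to 77.5) and 77.2 (71.9 to 82.8). lgg-2 overlapped both of its neighbours within counting error in either library, so its place in the order is not fixed, while bec-1 and atg-7 had intervals that did not overlap. unc-51 (Y60A3A.1) followed with 27.4 RPKM (24.8 to 30.2) and 31.7 (28.7 to 34.8), at ranks 3625 and 3607. atg-18 (F41E6.13) had 6.58 RPKM (4.83 to 8.75) and 4.79 (3.25 to 6.80), and vps-34 (B0025.1) had 0.192 (0.0395 to 0.560) and 0.141 (0.0171 to 0.510). These last values came from few reads over a small part of each coding sequence.

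**Figure D1:**
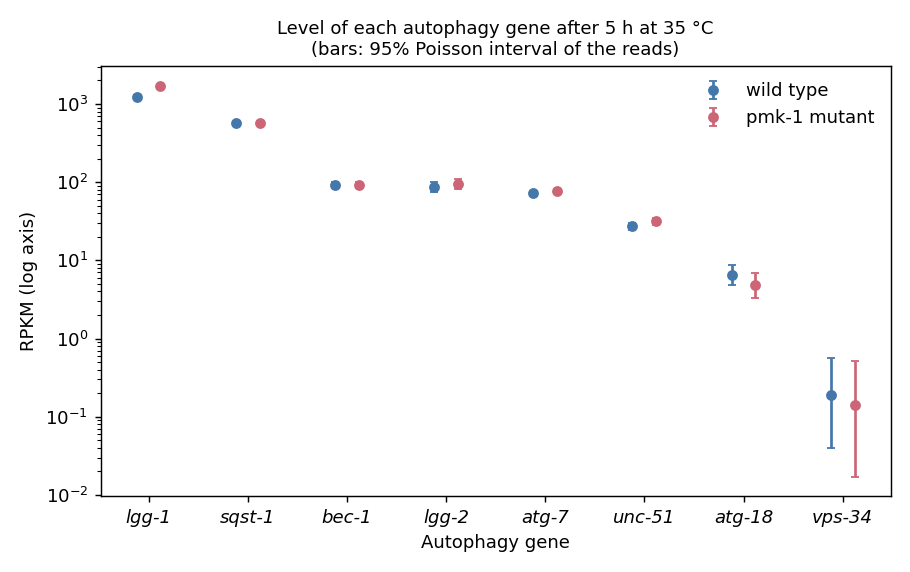
RPKM of each listed autophagy gene (log axis) in the wild-type library (blue) and the pmk-1 mutant library (red), with 1 library per genotype and bars for the 95% Poisson interval of the reads. lgg-1 and sqst-1 stand above the other genes, lgg-1 is the gene whose intervals are clearly apart between libraries (1244 against 1680 RPKM), and atg-18 and vps-34 are lowest.

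How much of each gene was counted differed sharply, and it split the 8 genes into those with 1 listed ID without an isoform letter and those whose ID carries a letter. lgg-1, bec-1, sqst-1, atg-7 and unc-51 each had a single ID without a letter, and reads covered between 98.4% and 99.9% of its coding length in both libraries. For lgg-2, the 1 listed ID was isoform a, and reads covered 55.0% of its 393 bases in the wild type against 53.2% in the mutant. For atg-18, the 44 wild-type reads of isoform a covered 108 of 1239 bases (8.72%), and the 3 reads of isoform b covered 55 of 1185 bases (4.64%). For vps-34, the 3 wild-type reads of isoform a covered 56 of 2706 bases (2.07%).

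For the 4 lettered IDs of these genes, the covered stretches were compared with what the annotated isoforms do not share. All 1290 entries with 1 read covered 49 bases, so a read can reach up to 48 bases beyond an isoform-specific base. In the WBcel235 annotation, which may differ from the one the authors used, atg-18 isoform a has 65 coding bases that isoform b lacks and 113 bases (9.12% of its length) within reach of a read over them, against 108 covered bases (8.72%) in the wild type and a coverage of 8.39% in the mutant. Isoform b has 59 bases within reach, against 55 and 49 covered. vps-34 isoform a has 12 isoform-specific bases and 60 within reach, against 56 and 54 covered. lgg-2 isoform a has 252 bases within reach, against 216 and 209 covered, although its annotated length of 429 bases differs from the deposited one. That closeness did not hold over the table: for 668 lettered IDs with at least 50 wild-type reads, a matching length and more than 1 annotated isoform, the median wild-type coverage was 55.4% against 14.0% within reach, and for the 429 with under 25% within reach it was 42.9% against 5.19%. The difference in coverage between IDs with and without a letter did run through the table. Among IDs with at least 50 wild-type reads, the median coverage was 98.7% for 3733 IDs without a letter and 65.5% for 859 IDs with one. How reads shared by isoforms were treated is not given in the sources used here, and the counts of atg-18 and vps-34 come from these short stretches. Divided by the covered bases alone, an alternative chosen after the data were seen, atg-18 isoform a came to 70.4 RPKM in the wild type against 55.2 in the mutant, near atg-7 at 72.7 and 77.7 on the same scale, and lgg-2 came to 158 and 178.

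**Figure D2:**
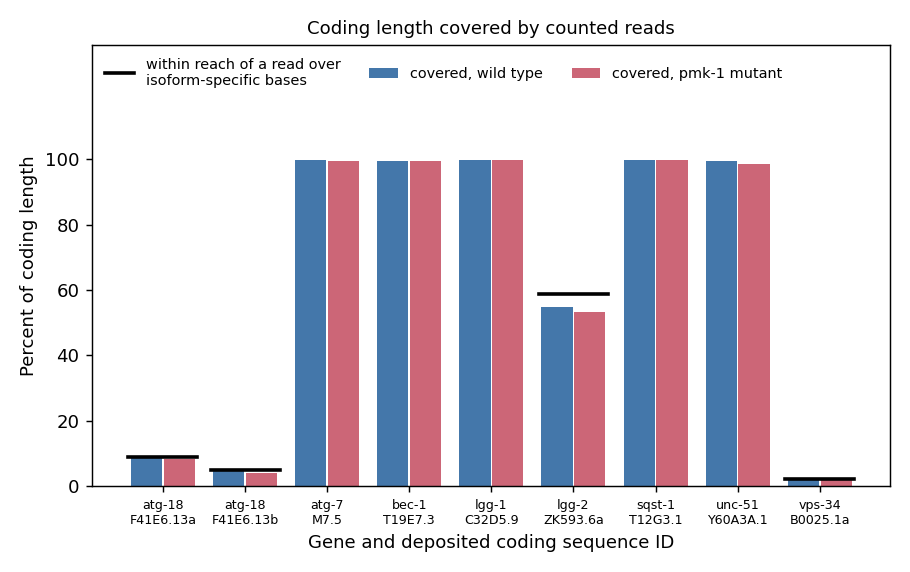
Percent of coding length covered by counted reads (vertical axis) for each deposited coding sequence ID of the autophagy genes, in the wild type (blue bars) and the pmk-1 mutant (red bars). Black lines mark, for IDs with an isoform letter, the percent of the annotated length within reach of a read over isoform-specific bases. IDs without a letter are covered to at least 98.4%, while bars for atg-18 and vps-34 end just under their black line. For lgg-2 the bars and the line cannot be compared directly, since they are percents of 393 deposited and 429 annotated bases. There 216 bases (wild type) and 209 bases (mutant) were covered, against 252 within reach.

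Calls of higher or lower in the mutant needed 50 or more reads in either library, a 2-fold or larger difference in CPM (reads as a share of their library) and an exact 95% conditional binomial interval clear of 1. That interval covers counting error only and compares these 2 libraries, not the genotypes. Of the 8 genes, 6 reached 50 reads, and none of the 6 differed 2-fold between the libraries when scaled to totals. Over all 5197 genes at that level, 17.6% were called higher (914 genes) and 1.75% lower (91 genes), so that 90.9% of the calls were on the higher side. That split depends on the scaling: with body tissue markers set to a median log2 ratio of 0, 7.59% of the calls were on the higher side. In that setting 70.0% of all 5197 genes were called lower, and so were 5 of the 6 autophagy genes. With library totals the 6 genes had a median log2 ratio of 0.11, from -0.016 to 0.43, beside a median of -0.33 over all genes with an interquartile range from -0.61 to 0.59. All 6 lay above the median of all genes, by a median of 0.44, a distance that was 0.24 for 7 genes at a level of 10 reads and 0.037 for all 8 with no filter. With size factors over genes with at least 50 reads, a scaling added after the data were seen, the intervals of all 6 lay above 1. On that scaling 2045 of all 5197 genes had intervals above 1 and 1571 had intervals below 1. The log2 ratios of the 6 genes were then 0.77 for lgg-1, 0.55 for unc-51, 0.46 for lgg-2, 0.43 for atg-7, 0.35 for sqst-1 and 0.32 for bec-1.

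lgg-1, a GABARAP-family gene, had the largest ratio of the set. It had 2676 wild-type and 3268 mutant reads, or 463 and 625 CPM, a ratio of 1.35 (1.28 to 1.42). The mutant library was the higher one, with a log2 ratio of 0.43 that exceeded those of 72.3% of all genes, and that turned to -0.84 with body tissue markers set to 0. lgg-2, of the LC3 family, had 198 and 195 reads, or 34.2 and 37.3 CPM, a ratio of 1.09 (0.889 to 1.33). Scaled to totals, the libraries did not differ beyond counting error for lgg-2, and the value describes isoform a. atg-7, the activating enzyme shared by both conjugation systems, had 814 and 785 reads, or 141 and 150 CPM, a ratio of 1.07 (0.966 to 1.18), again within counting error on that scaling.

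unc-51, the initiating kinase, had 407 wild-type and 426 mutant reads, or 70.4 and 81.4 CPM. Its ratio was 1.16 (1.01 to 1.33), with a lower end of the interval just above 1, and its log2 ratio of 0.21 turned to -1.07 with body tissue markers set to 0. The mutant library was the higher one for unc-51, by a margin close to counting error. bec-1 had 605 and 541 reads, or 104.6 and 103 CPM, a ratio of 0.989 (0.879 to 1.11). The cargo receptor gene sqst-1, the deepest of the set, had 6935 and 6311 reads, or 1199 and 1207 CPM, a ratio of 1.01 (0.973 to 1.04). For bec-1 and sqst-1 the libraries did not differ beyond counting error when scaled to totals. On the same scaling, hsf-1 (Y53C10A.12), the heat shock factor gene, had 1233 and 728 reads and was 1.53-fold lower (1.40 to 1.68).

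atg-18 had 47 wild-type and 31 mutant reads, a ratio of 0.729 (0.448 to 1.17), and stayed under the level of 50 reads. vps-34 had 3 and 2 reads, a ratio of 0.737 (0.0616 to 6.44). At this depth the libraries could not be told apart for either gene. With library totals, the intervals of 2 of the 6 genes at the level of 50 reads lay above 1 (lgg-1 and unc-51) and none lay below 1, while over all genes 30.2% lay above and 53.6% below.

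Other genes of the pathway were taken from 7 lists by role, 58 genes with the 9 above, of which 43 were listed and 31 reached 50 reads. Without the set, 25 genes reached that level, with a median log2 ratio of -0.32 beside -0.33 for all genes. Of these 25, 1 was called higher and 0 lower, 4 had intervals above 1 and 16 had intervals below 1. Over all 5197 genes, 17.6% were called higher and 1.75% lower, 30.2% had intervals above 1 and 53.6% had intervals below 1. Intervals below 1 were found for 16 of 25 other genes and for 0 of 6 genes of the set, and the difference between the lists was not tested. With the size factors over genes with at least 50 reads, 7 of the 25 had intervals above 1 and 7 below 1. Over all 5197 genes these counts were 2045 and 1571. Of the genes given below as higher, atg-4.1, epg-2 and lmp-1 had log2 ratios below 0 (-0.94, -0.64 and -1.06) with body tissue markers set to 0. Of the genes given below as lower, atg-5, atg-3 and raga-1 lay at 0.012, -0.10 and -0.13 relative to the median of all genes, and their intervals reached 1 with those size factors. Some of these values also rest on part of a coding sequence: wild-type reads covered 14.1% of the best-covered ID of allo-1, 30.8% for aak-1, 47.2% for atg-5 and 56.5% for epg-2.

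Within the initiation complex, atg-13 (D2007.5), which encodes the regulatory partner of UNC-51, had 671 wild-type and 414 mutant reads and was 1.47-fold lower (1.29 to 1.66). Relative to the median of all genes, the log2 ratio of atg-13 was -0.22. The ratio of unc-51 reads to atg-13 reads, which needs no scaling between libraries, was 0.607 for the wild type against 1.03 for the mutant, an odds ratio of 1.70 (1.41 to 2.05). epg-9, of the same complex, had 10 and 15 reads. In the lipid kinase complex, epg-8 (Y106G6A.2), the worm counterpart of ATG14, had 585 and 329 reads and was 1.61-fold lower (1.40 to 1.85). bec-1 reads per epg-8 read were 1.03 and 1.64, an odds ratio of 1.59 (1.33 to 1.91). Of the 4 genes of the list that supplies and binds membrane lipid, atg-18 and epg-6 (9 and 2 reads) were listed, and neither reached 50 reads.

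Of 11 conjugation genes, 7 were listed and 6 reached 50 reads, with a median log2 ratio of 0.11. atg-4.1 (Y87G2A.3), a protease that trims LGG-1 and its relatives, had 398 and 455 reads and was 1.26-fold higher (1.10 to 1.45). atg-3 (Y55F3AM.4), the conjugating enzyme that acts after ATG-7, had 498 and 332 reads and was 1.36-fold lower (1.18 to 1.56). atg-5, part of the ligase complex, had 198 and 143 reads and was 1.25-fold lower (1.005 to 1.56). lgg-1 reads per atg-3 read were 5.37 for the wild type against 9.84 for the mutant, an odds ratio of 1.83 (1.58 to 2.13), the largest of 10 pairs of genes compared this way, all chosen after their values were seen. Against atg-7 the odds ratio of lgg-1 was 1.27 (1.13 to 1.42), against lgg-2 it was 1.24 (1.01 to 1.53), against sqst-1 it was 1.34 (1.26 to 1.43), and against atg-4.1 it was 1.07 (0.922 to 1.24), which reached 1. The higher share of lgg-1 in the mutant library relative to these genes, apart from atg-4.1, does not depend on the scaling. Since lgg-1 was paired with its ratio in view, these odds ratios restate that ratio and are no separate support for it. Of the other pairs, atg-7 against bec-1 (1.08, 0.924 to 1.26) and sqst-1 against lgg-2 (0.924, 0.752 to 1.14) reached 1. atg-7 against atg-3 had an odds ratio of 1.45 (1.22 to 1.72).

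**Figure D3:**
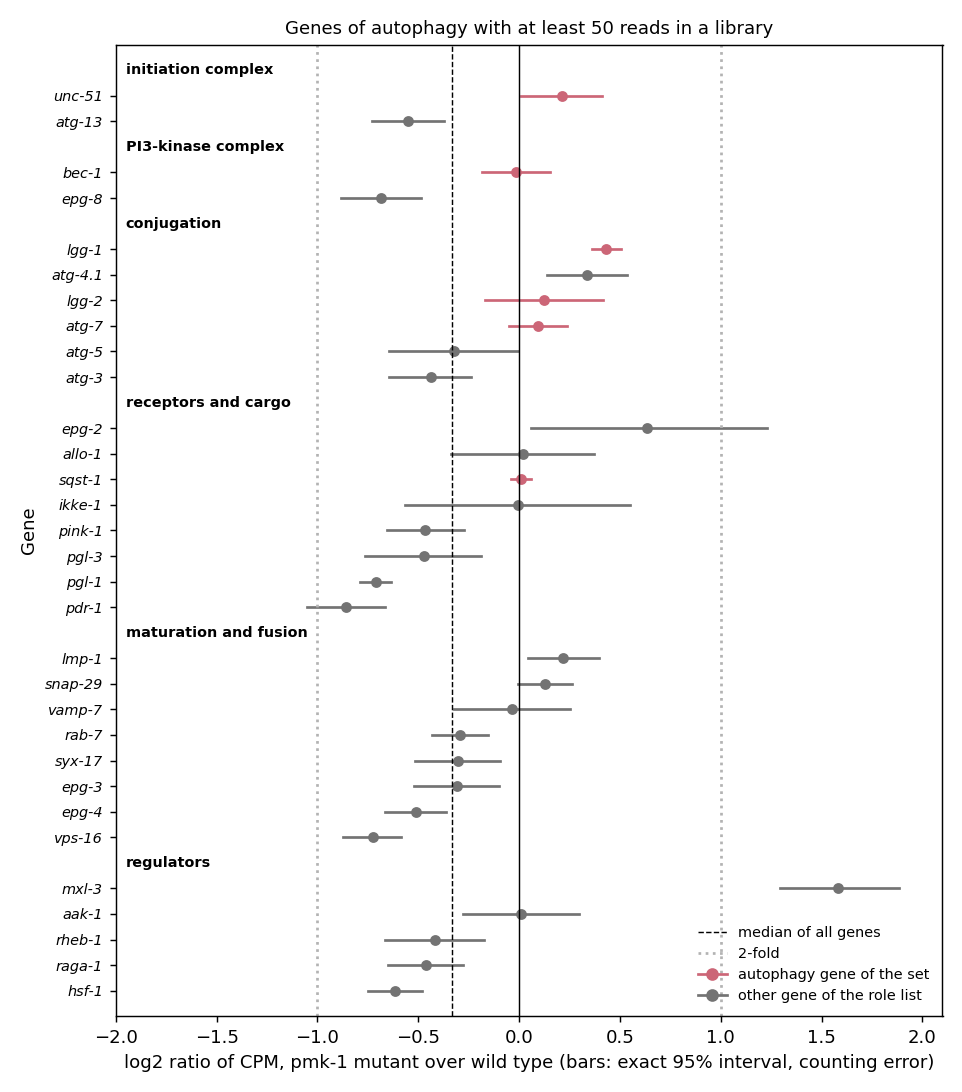
log2 ratio of CPM (horizontal axis, pmk-1 mutant over wild type, scaled to library totals) for the 31 genes of the role lists with at least 50 reads in a library, with exact 95% intervals for counting error. Red points are the 6 genes of the set, grey points the other genes, the dashed line is the median of all genes (-0.33) and dotted lines mark a ratio of 2 in either direction, which mxl-3 alone passes.

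Among receptors and cargo, 8 of 10 genes reached 50 reads, 1 with an interval above 1, 4 below 1 and none called. Over all genes at that level, 30.2% had intervals above 1 and 53.6% below 1, with 17.6% called higher and 1.75% lower. pgl-1 (ZK381.4), which encodes a germ granule protein that autophagy removes from the body cells of embryos, had 3957 and 2185 reads and was 1.64-fold lower (1.55 to 1.73). pdr-1 (K08E3.7), the worm parkin gene of mitochondrial autophagy, had 651 and 325 reads and was 1.81-fold lower (1.58 to 2.08), the smallest ratio among the 31 genes. epg-2 (Y39G10AR.10), the scaffold gene for germ granule cargo, had 44 and 62 reads and was 1.56-fold higher (1.04 to 2.35). allo-1, a receptor gene for paternal organelles, had 24.5 and 24.9 CPM, a ratio of 1.01 (0.792 to 1.29).

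Of 15 genes for maturation and fusion, 8 reached 50 reads, 1 with an interval above 1 and 5 below 1, and none was called. The shares over all genes were again 30.2% above 1 and 53.6% below 1, with 17.6% called higher and 1.75% lower. vps-16 (C05D11.2), of the complexes that tether membranes to lysosomes, had 1113 and 608 reads and was 1.66-fold lower (1.498 to 1.83). lmp-1 (C03B1.12), a lysosomal membrane protein gene, had 527 and 555 reads and was 1.16-fold higher (1.03 to 1.31). The membrane fusion genes snap-29 (894 and 884 reads) and vamp-7 (214 and 189 reads) had ratios of 1.09 (0.995 to 1.20) and 0.977 (0.799 to 1.19).

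Of 10 regulators, 5 reached 50 reads. mxl-3 (F46G10.6) encodes a repressor of lysosomal lipid breakdown genes that competes with HLH-30, the worm TFEB. Of the 31 role genes that reached 50 reads, mxl-3 was the 1 that was called, while 17.6% of all genes were called higher and 1.75% lower. It had 133 wild-type and 361 mutant reads, or 23.0 and 69.0 CPM, a ratio of 3.002 (2.45 to 3.69), and its log2 ratio stayed above 0 at 0.31 with body tissue markers set to 0, where it was no longer called. hlh-30 itself had 5 and 8 reads, which cannot show a difference. raga-1 (T24F1.1), a GTPase gene that activates the TOR kinase, had 616 and 404 reads and was 1.38-fold lower (1.21 to 1.57), and aak-1, an AMP-activated kinase gene, had 214 and 195 reads, a ratio of 1.01 (0.826 to 1.23).

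Markers of tissues differed between the 2 libraries of these whole worms, where fewer cells of a type and less RNA per cell cannot be told apart. With 1 library per genotype, these differences cannot be assigned to genotype. Of 36 markers of muscle, pharynx, neurons, intestine and hypodermis, 33 were listed, and together they had 5528 CPM in the wild type against 12114 in the mutant, with a median log2 ratio of 1.28 over the 24 with 50 reads. The collagen gene col-19 alone supplied 2390 and 5120 CPM of these sums. The hypodermis list went both ways, since lin-26, with 1639 and 798 reads, was 1.86-fold lower (1.71 to 2.02), below each of the 6 autophagy genes. Of the 5 neuron markers with 50 reads, 3 had intervals above 1, while snb-1 (480 and 419 reads) had a ratio of 0.965 (0.845 to 1.10). All 4 intestine markers with 50 reads had intervals above 1, while elt-2 (24 and 15 reads) stayed under that level, at 0.691 (0.337 to 1.37). snt-1 and elt-3 were at 0 in the wild type. Of 12 markers of the oogenic germline, 9 were listed, none at 0, with 7676 and 4276 CPM and a median of -0.87. Of 10 sperm markers, 8 were listed, none at 0, with 19.2 and 266 CPM and a median of 4.15. The median of the 6 autophagy genes lay between those of the germline and body markers, as did the median of all genes (-0.33). The part of tissue makeup in the ratios of the 6 genes was not tested. pmk-1 was not analysed here, so the deletion was not checked in its own transcript.

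**Figure D4:**
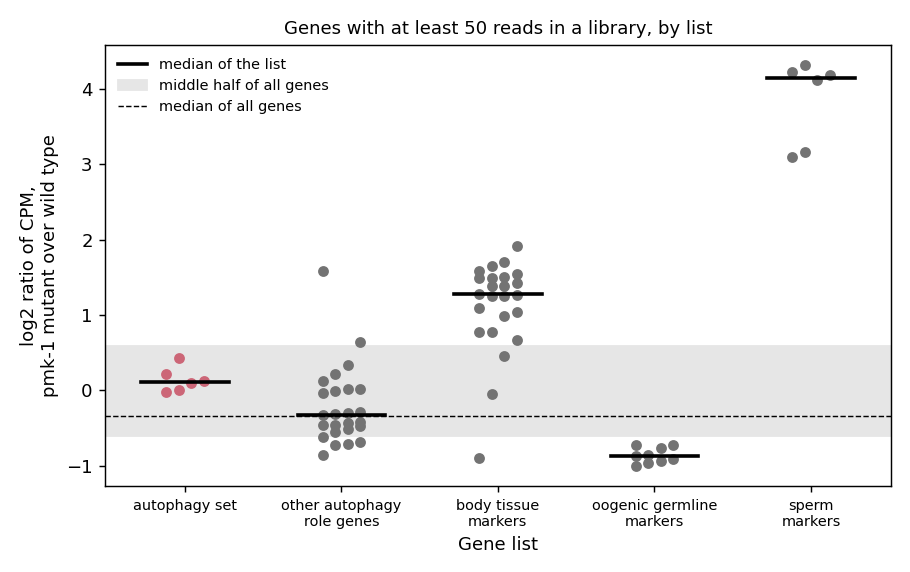
log2 ratio of CPM (vertical axis, pmk-1 mutant over wild type, scaled to library totals) for genes that reached 50 reads in either library, by list. Points are genes, black bars list medians, the dashed line the median of all genes (-0.33) and the grey band their interquartile range. The median of the 6 autophagy genes (red, 0.11) lies between those of oogenic germline markers (-0.87) and body tissue markers (1.28), as does the median of all genes.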

How the data were processed

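The authors deposited, per the file headers, unnormalized counts of uniquely mapped reads for each coding sequence ID, and beside them RPKM and the percent of coding length covered. The deposited RPKM was recomputed from counts, length and the library total with a largest relative error of 2.77e-08. No aligner, genome build or annotation is named in the sources used here. Each of the 9430 IDs has a length divisible by 3, so values are per coding length. The labels state no strand-specific kit, so reads of a gene and of an antisense neighbour are not separable.

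IDs were matched to sequence names of the WBcel235 annotation, used for names, chromosomes and isoform overlap: 9383 matched, 47 kept their own name, and summing isoforms gave 8730 genes. An ID listed in 1 library was taken as 0 reads in the other, and 0 reads allow up to 3 reads (0.519 CPM in the wild type, 0.574 in the mutant). Intervals cover counting error only, and PCR copies of a molecule, which no identifiers mark, are counted as separate reads. Log2 ratios used a prior of 0.5 reads. The ratio, interval and call were tested on simulated data with counting error alone and known library totals (Python 3.11.15, SciPy 1.17.1). Such data cannot test the choice of scaling or variation between replicates. Scaling alternatives used edgeR 4.0.16 (TMM) and DESeq2 1.42.0 (median-of-ratios), with no test, because 1 library per genotype leaves no residual degrees of freedom. The genes and lists were chosen with earlier results of these data known. Genes named are the 9 of the set and, per role list, called genes or up to 4 with the largest distance from the median of all genes. hlh-30, epg-6, epg-9, atg-3, atg-5 and dct-1 are not among these, and were picked with their values in view. The markers col-19, lin-26, snb-1, elt-2, snt-1 and elt-3 are named besides. Of the neuron markers with 50 reads, snb-1 lay nearest the median of all genes, and elt-2, snt-1 and elt-3 stayed under 50 reads.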

Additional observations from a re-analysis of the deposited data

How the results depend on the processing

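No paired analysis was possible because each genotype has 1 library, and no library could be left out. Some of the 11 alternatives could not change a call of the set. The prior does not enter the calls. The 6 genes with 50 reads have 1 ID each and the same ratio in deposited RPKM as in CPM, so those 2 alternatives left them as they were. Limiting genes by coverage can only remove calls. None of the 8 listed genes was called higher under any of the 11 alternatives, and none lower except with body tissue markers set to a median of 0. That scaling lowered every log2 ratio by 1.28. Of the 31 role genes that reached 50 reads, 27 were then called lower and 0 higher. These 27 were 5 of the 6 genes of the set and 22 of the 25 other role genes. Over all 5197 genes, 299 were then higher (5.75%) and 3640 lower (70.0%). Log2 ratios turned to -0.84 for lgg-1 and -1.07 for unc-51. At 10 reads 2 role genes were called higher (mxl-3 and dct-1, which had 6 and 18 reads). Of all 6940 genes at that level, 1531 were higher (22.1%) and 157 lower (2.26%). With no filter 2 role genes were again higher, and of all 8730 genes 1601 were higher (18.3%) and 164 lower (1.88%). At 1.5-fold, 2 role genes were higher (mxl-3 and epg-2) and 5 lower (epg-8, pgl-1, pdr-1, vps-16 and hsf-1), with 1299 genes higher and 1436 lower over all, so that 47.5% of the calls were on the higher side against 90.9% at 2-fold. The count of all genes called lower was 59 with TMM and 25 with size factors over genes with 50 reads, the latter added after the data were seen. With genes limited to an ID covered to at least 90% in both libraries, also added later, 306 of 3577 genes were higher (8.55%) and 39 lower (1.09%), and the cause was not tested. The distance of the set's median from that of all genes was 0.44 at the level of 50 reads, 0.24 at 10 reads and 0.037 with no filter, where the median of all genes was 0.014. Depth limits atg-18 and vps-34, whose intervals hold ratios on both sides of 1.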
